A study of Arabidopsis thaliana with 12 samples.

Results

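The small RNA of wild-type Arabidopsis inflorescences was described from the 3 Col-0 libraries of a series of 12 libraries. The series sequenced small RNA of inflorescences from 4 genotypes, namely the mutants heso1-1, urt1-1 and ntp4-1 and the wild type Col-0, with 3 biological replicates of each. The columns labelled Col-0 were taken, and the mutant libraries are not used here. Per the labels, the Col-0 plants were wild type and untreated, and were grown at 22 °C with a day of 16 h and a night of 8 h. The labels give neither the number of plants behind a replicate nor their age, and an inflorescence mixes buds, flowers and stem tissue, so fewer cells of a type and less small RNA per cell cannot be told apart. The unit of the table is RPM, the reads of a bin scaled to the total reads of its library, and each bin spans 100 bp.

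Plants make several kinds of small RNA. A microRNA (miRNA) is cut by DICER-LIKE 1 from the hairpin of a MIR transcript, is loaded into an ARGONAUTE protein and guides it to mRNAs with a nearly complementary site, mostly of transcription factors that shape leaves and flowers. Some miRNAs start a second layer: a cut TAS transcript is copied into double-stranded RNA and diced in steps into trans-acting siRNAs (tasiRNAs). The most diverse layer is siRNA from transposable elements and repeats, which is copied from short RNA polymerase IV transcripts and directs DNA methylation. Fragments of ribosomal RNA, tRNA and organelle RNA are in the size range as well, and some organelle fragments are footprints of RNA-binding proteins.

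The table listed 152484 bins, and 114552 of them (75.1%) were above 0 in all 3 Col-0 libraries. A mean of at least 1 RPM was reached by 46506 bins (30.5%), and 1236 bins were at 0 in every Col-0 library. The RPM imply totals of 11122146, 7286879 and 9950002 reads in replicates 1, 2 and 3, and the listed bins held 52.2%, 67.5% and 63.6% of them. Replicate 1 stood apart from the other libraries: over 45739 bins its log2 values correlated at 0.814 and 0.835 (Pearson) with those of replicates 2 and 3, which correlated at 0.928 with each other. On the deposited RPM, the median bin of these was 0.62 and 0.50 lower on the log2 scale in replicate 1 than in replicates 2 and 3. Classes were compared after scaling each library to its listed RPM, over bins with a mean of at least 1 RPM. On this scale the median bin with a mature miRNA lay 0.77 lower in replicate 1 than in the other libraries. The median TAS bin lay 0.98 lower and the median transposable element bin 0.30 lower. The part of this library in the results below was not tested further than by leaving it out, so values of single libraries are given for the main loci, in the order of replicates 1, 2 and 3, and other loci by their mean.

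Mature miRNAs of the 10 most abundant families are shown first, because the members of a family differ from each other by only a few bases. The lower miR390a-5p is added because it acts on TAS transcripts, as does miR173-5p, and miR447 because a pair of its loci gives an identical mature sequence. Sequences were read from the RefSeq genome TAIR10.1, and the capitals mark the seed, bases 2 to 8 from the 5′ end.
miR158a-3p: uCCCAAAUguagacaaagca
miR159a: uUUGGAUUgaagggagcucua
miR159b-3p: uUUGGAUUgaagggagcucuu
miR159c: uUUGGAUUgaagggagcuccu
miR319c: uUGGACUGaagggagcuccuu
miR319a: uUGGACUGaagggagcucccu
miR166a-3p: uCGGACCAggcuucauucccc
miR845a: cGGCUCUGauaccaauugaug
miR845b: uCGCUCUGauaccaaauugaug
miR163: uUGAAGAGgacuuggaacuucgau
miR780.1: uCUAGCAGcuguugagcaggu
miR162b-3p: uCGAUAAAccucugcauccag
miR161.1: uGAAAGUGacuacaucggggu
miR173-5p: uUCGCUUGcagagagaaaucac
miR173-3p: uGAUUCUCuguguaagcgaaa
miR390a-5p: aAGCUCAGgagggauagcgcc
miR447a-3p and miR447b: uUGGGGACgagauguuuuguug
The 3 members of the miR159 family share the seed UUGGAUU, and those of miR319 share UGGACUG, which is offset by 1 base in an otherwise similar sequence. miR163 is 24 nt long and miR845b is 22 nt, while 325 of the 428 annotated mature miRNAs (75.9%) are 21 nt.

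A level below is the RPM of the bin that holds the lowest coordinate of the mature miRNA, since reads were found to be assigned by their lowest coordinate. Of 28 mature miRNAs that cross a bin border and reach 10 RPM over both bins, 23 had more in the lower bin, with a median of 99.2% there. A bin counts every read that starts in it, whatever its length or strand, so annotated miRNAs that share a bin share a value.

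miR158 was the most abundant family in the inflorescence by its mean. Its 3 bins summed to 5094, 12790.0 and 11728 RPM, and nearly all of it came from the MIR158a bin (chromosome 3, 3366301 to 3366400), which holds miR158a-3p and miR158a-5p and had 5055, 12678 and 11616 RPM. The level of miR158 in replicate 1 was below that of the other libraries, and in that library miR319 was the highest family. miR158 is a lineage-specific miRNA of the mustard family. It made up 26.4 ± 6.49% (SD, n = 3) of the RPM in mature miRNA bins.

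The miR159 and miR319 families came next, and with miR158 they held 59.8 ± 2.39% of the RPM in mature miRNA bins. miR159, which targets GAMYB-like MYB mRNAs and acts in anthers and seeds, summed to 4793, 8560.0 and 7332 RPM over 4 bins. miR319, which targets TCP mRNAs that control leaf and petal growth, summed to 5565, 5175 and 4046 RPM over 3 bins. Within miR159 the MIR159a bin had 2902, 5019 and 4253 RPM, the MIR159b bin 1804, 3206 and 2858 RPM and the MIR159c bin 84.1, 327 and 212 RPM. The order a, b, c held in every library. Within miR319, MIR319c led in replicate 1 with 3577 RPM against 1885 RPM for MIR319a, whereas MIR319a led in replicates 2 and 3 with 2811 and 2106 RPM against 2018 and 1766 RPM for MIR319c.

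The next families in order were miR166, miR845, miR163, miR780, miR162, miR161 and miR173. miR166, which targets the class III HD-ZIP genes of organ polarity, had 1574, 2391 and 2611 RPM. miR845, known from pollen, where it targets the primer-binding site of retrotransposons, had 2854, 1485 and 1670.0 RPM, most of it from MIR845a. miR2939, another pollen miRNA, averaged 0.389 RPM, so of the pollen markers MIR845a and MIR845b were present and MIR2939 was near 0. The replicate with the least miR158, miR159 and miR166 thus had the most miR845. miR163, which targets methyltransferase mRNAs, had 882, 2039 and 1443 RPM, and miR780 had 1033, 1348 and 1184 RPM. The 10 highest families together held 86.3 ± 2.64% of the RPM in mature miRNA bins, and the highest 20 held 94.8 ± 0.295%.

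**Figure D1:**
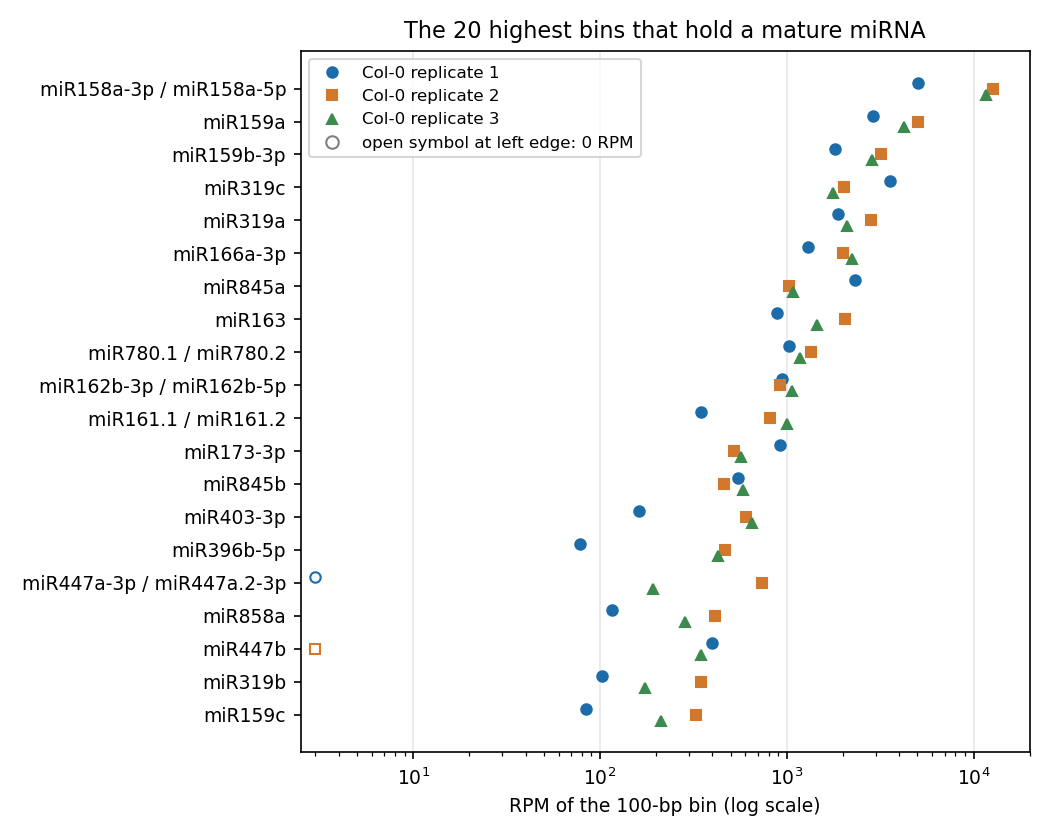
RPM (log axis) of the 20 highest 100-bp bins that hold a mature miRNA, with one symbol per Col-0 library and open symbols at the left edge for 0 RPM. The MIR158a bin leads with 5055 to 12678 RPM, and the identical miR447a-3p and miR447b trade places between libraries.

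The families of the small RNA machinery itself were well represented. miR162, which targets DCL1, had 992, 953 and 1121 RPM, a narrow range in which replicate 1 did not stand apart. miR403, which targets AGO2, had 164.5, 619 and 664 RPM, and miR168, which targets AGO1, had 82.3, 174 and 178 RPM. Both were lower in replicate 1. Small RNA from the targets was sparse: the mean was 12.3 ± 9.49 RPM at AGO2, 6.39 ± 1.32 RPM at AGO1 and 4.94 ± 0.345 RPM at DCL1.

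Families that pattern flowers and leaves differed widely in level. Of 56 MIR genes in the list of developmental families, 53 had a listed bin and 46 a mean of at least 1 RPM. Over all 326 MIR genes of the reference, these counts were 282 and 207. miR172, which targets AP2-type floral identity genes, summed to 36.2, 321 and 248 RPM, and miR167, which targets ARF6 and ARF8, to 61.0, 304 and 343 RPM. miR156, the SPL-targeting miRNA of the juvenile phase, had 139, 269.7 and 223 RPM, and miR396, which targets growth-regulating factors, had 188, 673 and 617 RPM. In all of these families replicate 1 was lowest. miR164, which targets CUC mRNAs, had 11.8, 51.2 and 47.9 RPM, and miR160, which targets ARF mRNAs, had 3.596, 19.6 and 23.9 RPM, again lowest in replicate 1.

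Nutrient and stress families were a minor part, with 15 of 36 MIR genes at a mean of at least 1 RPM and 22 with a listed bin. Over all 326 MIR genes of the reference, 207 reached that mean and 282 had a listed bin. These counts use the bins in the gene, whereas the family levels use the bins of the mature miRNAs. The sulfate-responsive miR395 was the highest of the nutrient and stress families, with 289.9, 365 and 290.4 RPM. The copper-responsive miR398 had 12.8, 22.0 and 30.8 RPM, the phosphate-responsive miR399 15.5, 6.999 and 10.2 RPM, and miR408, another copper-responsive miRNA, 0.450, 2.47 and 2.91 RPM. No bin was listed for MIR397a or MIR397b. A bin needs at least 12 reads over the 12 libraries of the table to be listed, so a missing bin does not show absence.

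In the reference, 326 MIR genes are annotated, of which 282 had a listed bin. By the bins in the gene, 207 reached a mean of 1 RPM, 92 reached 10 RPM, 24 reached 100 RPM and 7 reached 1000 RPM. A further 75 stayed below 1 RPM, 2 of them at 0 in all 3 libraries. Loci were built from bins whose midpoint lies in the gene, which misses a mature miRNA at the edge of its gene (MIR159b counted 7.89 RPM by this rule, against 2623 RPM in its mature bin). Among 19 mature miRNAs that are alone in their bin and reach 100 RPM, 17 begin with U (89.5%). This share was 59.1% of 203 at 1 RPM or more, which include those 19, and 79 of 158 (50%) below 1 RPM or not listed. Over all 428 annotated mature miRNAs it was 56.3%. A 5′ U is the base that AGO1 is known to prefer.

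Where several loci encode the same mature sequence, the levels show where the authors' processing placed the reads. The 7 loci of the sequence of miR166a-3p summed to 1843 RPM at MIR166a and as little as 10.1 RPM at MIR166b, and MIR166a held 87.6%, 87.4% and 89.0% of them. MIR447a had 0, 733 and 192 RPM, whereas MIR447b had 398.3, 0 and 346 RPM. The sum of the pair, 398.3, 733 and 538 RPM, varied less than either copy. How reads with several matches were placed is not given in the sources used here, so the level of a sequence is better read from the sum over its loci.

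The 2 arms of a hairpin were then compared within each library, since 1 strand of the duplex is kept and the other mostly degraded. Of 93 precursors with an annotated 5p and 3p miRNA, 46 had their arms in different listed bins, and 44 of those had enough RPM to be tested with limma on log2((5p + 0.5)/(3p + 0.5)). The arms differed for 29 precursors (65.9% of those tested) at a threshold of 0.05 on the adjusted p. The 5p arm was higher for 15 of them (34.1%) and the 3p arm for 14 (31.8%), and the median ratio over all 44 was 0.09 on the log2 scale. In 35 of the 44 the sign was the same in every library, and without replicate 2 the number called was 18.

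MIR159b was the most asymmetric, with 2.70, 7.55 and 9.35 RPM on the 5p arm against 1804, 3206 and 2858 RPM on the 3p arm. Its log2 ratio was -8.65 (SE 0.28, adjusted p = 4.68e-05, limma), with the 3p arm higher in 3 of 3 libraries. MIR403 (-5.63), MIR393b (-4.86), MIR166e (-4.68) and MIR166a (-4.25) also had a higher 3p arm. That arm holds the known guide of miR159, miR403 and miR166. For miR393 the arm that targets the auxin receptors is 5p, which had 0.629, 2.88 and 4.22 RPM at MIR393b, against 35.7, 107 and 113 RPM on 3p. MIR156d was the largest ratio the other way: 109, 203 and 149 RPM on the 5p arm against 0.899, 2.61 and 3.12 RPM on the 3p arm (log2 ratio 5.90, SE 0.28, adjusted p = 6.21e-05, limma). MIR863 (4.04), MIR472 (3.68), MIR396b (3.26) and MIR157c (3.01) followed. The 5p sequence of MIR156d is annotated at 6 loci, and 88.8% of its RPM was placed at MIR156d. MIR156a and MIR156b share that sequence and had log2 ratios of 0.004 and 0.17, not called. Other loci also carry the 3p sequence of MIR166a and MIR166e and the 5p sequence of MIR157c. The ratios of these loci therefore depend on how reads with several matches were placed.

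MIR173 ran against the strand by which this miRNA is known. miR173-5p, the arm that cuts TAS1 and TAS2, had 8.18, 71.4 and 64.7 RPM, against 917, 525 and 569.8 RPM on the 3p arm. The log2 ratio was -4.24 (SE 0.83, adjusted p = 0.0107, limma), with the 3p arm higher in all 3 libraries and the widest gap in replicate 1. Without replicate 1 the ratio was -3.00. MIR396a was not called: its 5p arm had 22.0, 124 and 111 RPM and its 3p arm 70.5, 49.9 and 48.2 RPM (log2 ratio 0.28, SE 0.66, adjusted p = 0.74, limma). Replicate 1 alone had more 3p than 5p, and without it the ratio was 1.25 and passed the threshold.

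**Figure D2:**
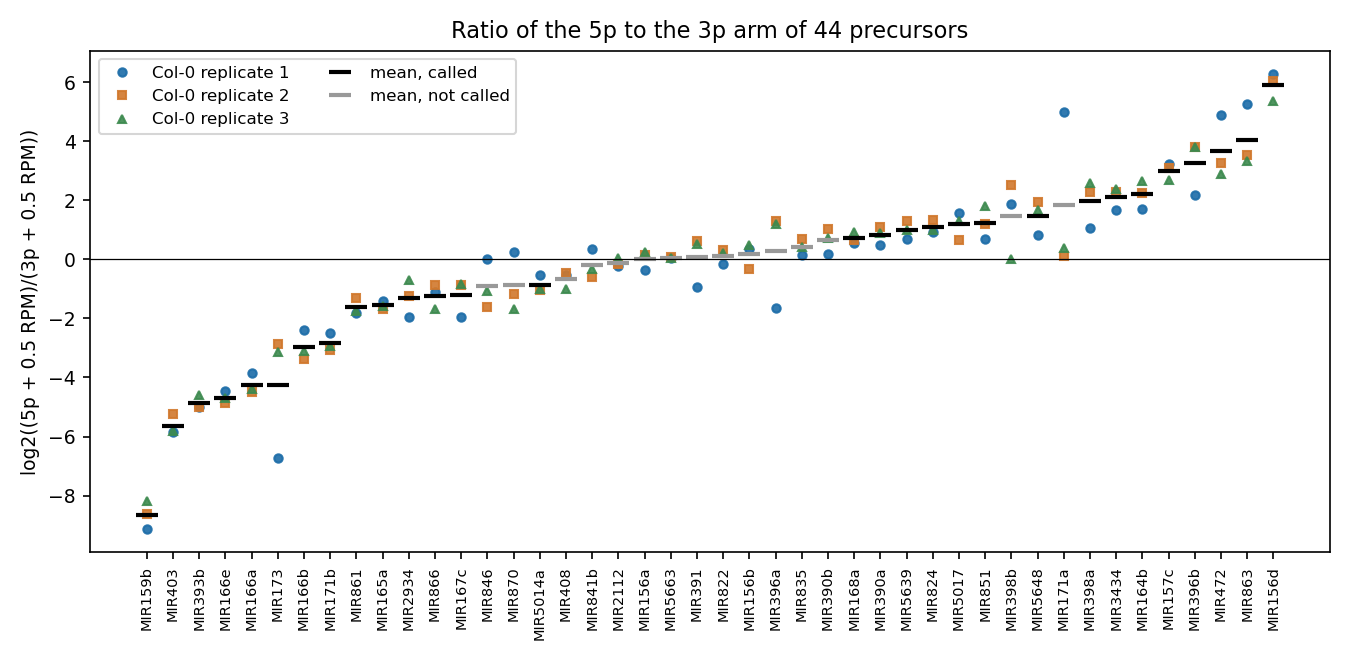
Ratio of the 5p to the 3p arm on the log2 scale, with 0.5 RPM added to each arm, for the 44 precursors tested in order of their mean. Symbols are the Col-0 libraries and bars the means, black where limma called the ratio. The means run from -8.65 at MIR159b to 5.90 at MIR156d.

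The TAS loci had the highest density of small RNA of all nuclear classes, 181 ± 19.6 RPM per listed bin, and held 1.40 ± 0.0759% of the listed RPM in 47 bins. TAS1 and TAS2 transcripts are cut once by miR173, and TAS3 transcripts are bound at 2 sites by miR390. The best match to the miRNA in each gene is shown on the strand of the transcript, 5′ to 3′, with capitals at the positions that do not match the complement of miR173-5p or miR390a-5p (TAS1A to TAS3C) or miR828 (TAS4).
TAS1A: gtgatttTtctctAcaagcgaa
TAS1B: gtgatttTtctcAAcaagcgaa
TAS1C: gtgatttTtctctAcaagcgaa
TAS2: gtgatttTtctctCcaagcgaa
TAS3: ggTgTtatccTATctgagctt
TAS3 (the second match): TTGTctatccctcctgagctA
TAS4: tggaatactcatttGagcaaga
The miR173 matches of TAS1A, TAS1C and TAS2 have 2 mismatches and that of TAS1B has 3. Both TAS3 matches have 5. TAS1A and TAS1C carry the same site, on chromosome 2 at 11722081 to 11722102 and 16537890 to 16537911 of the minus strand.

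TAS1C had the most RPM of the TAS loci as placed by the authors, with 4340.3, 4113 and 3782 RPM, and TAS2 next to it on chromosome 2 had 1776, 2903 and 2369 RPM. TAS1A had 590.4, 1093 and 930.3 RPM and TAS1B 539.6, 413 and 373 RPM. In replicate 1 TAS1C and TAS1B were highest, and TAS2 and TAS1A were lowest. TAS3 (AT3G17185), whose tasiRNAs target the auxin response factors ETT, ARF4 and ARF2, had 211, 657 and 625 RPM. Its relatives were lower, with means of 169.2 ± 67.6 RPM at TAS3b and 102 ± 11.8 RPM at TASIR-ARF (AT5G57735). TAS4 (AT3G25795), which is cut by miR828, had 0.629, 0.137 and 0.704 RPM, and the bin of miR828 itself had 0.0899, 0 and 0.101 RPM.

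The small RNA lay on the 3′ side of the miR173 match. The share of a locus in bins centred 3′ of the match was 100% at TAS1A, 99.01% at TAS1B, 99.83% at TAS1C and 99.99% at TAS2. At TAS3, 93.0%, 97.7% and 97.3% lay in bins between the 2 miR390 matches or over their inner edge. At TAS3b the mean share between the matches was 99.8% and at TASIR-ARF it was 99.5%. Within TAS1C the first bin after the match, centred 50 bp from it, had 3211, 2327 and 2187 RPM and held 63.1% of the locus, and the bin centred 450 bp from the match was below 1 RPM in every library.

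**Figure D3:**
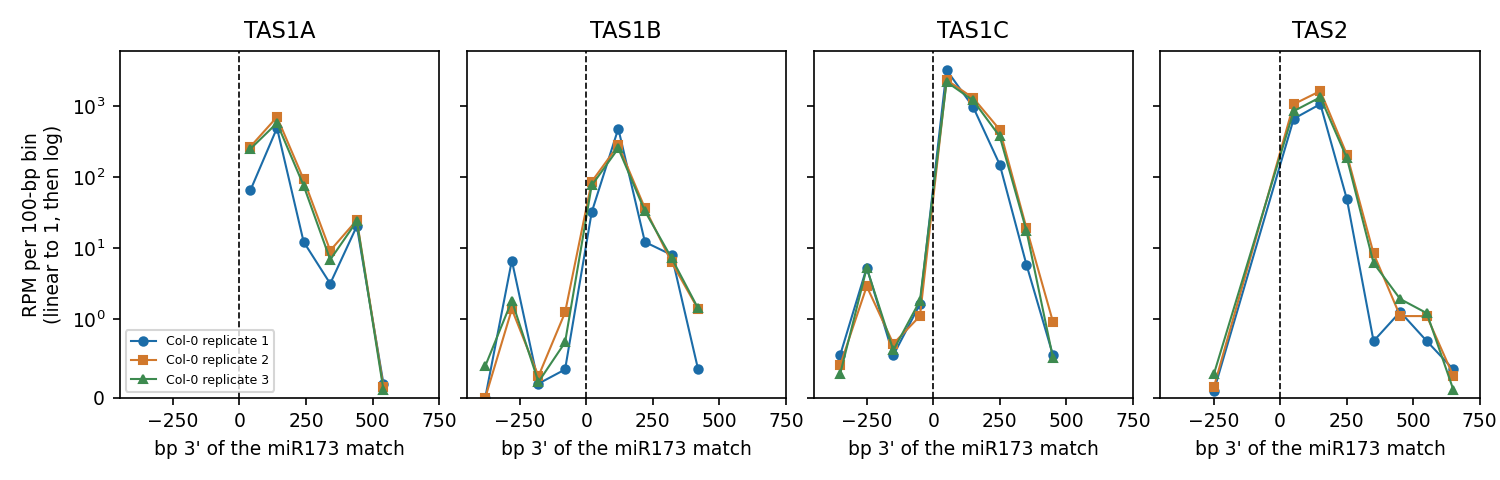
RPM per listed 100-bp bin (linear to 1, then log) against the distance of the bin's centre from the miR173 match, positive on its 3′ side, at TAS1A, TAS1B, TAS1C and TAS2. Lines are the Col-0 libraries and the dashed line is the match. The highest bins lie within about 150 bp on the 3′ side, at up to 3211 RPM in TAS1C.

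The highest bin of each TAS1 gene holds the same stretch of 23 bases, in capitals here on the strand of the transcript.
TAS1A, chr2:11721901-11722000: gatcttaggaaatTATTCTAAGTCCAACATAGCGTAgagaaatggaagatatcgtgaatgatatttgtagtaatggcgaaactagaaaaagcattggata
TAS1B, chr1:18549501-18549600: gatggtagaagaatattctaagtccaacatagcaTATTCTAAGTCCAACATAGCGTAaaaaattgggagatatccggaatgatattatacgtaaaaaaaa
TAS1C, chr2:16537801-16537900: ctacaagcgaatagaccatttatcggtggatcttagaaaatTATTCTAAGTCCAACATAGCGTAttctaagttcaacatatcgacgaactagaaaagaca
A siRNA from this stretch would match all 3 genes, so RPM that comes from it cannot be assigned to a gene. The bins had means of 588, 338 and 2575 RPM. The table gives no read positions within a bin, so the part that comes from the stretch is not known. Without this whole bin TAS1C had 1130, 1787 and 1595 RPM, below TAS2 in every library. The rank of TAS1C among the TAS loci thus rests on the bin, though not necessarily on the shared stretch. In TAS1C the beginning of the bin also holds the end of the miR173 site.

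PPR genes, which encode RNA-binding proteins of organelles, are cut by miR161 and by TAS2 siRNAs and make phased siRNAs of their own. All 16 PPR genes on the list had a listed bin and 13 had a mean of at least 1 RPM. Of all 5091 protein-coding genes with a listed bin, 2368 (46.5%) reached that mean. AT1G63080 had 1201, 657 and 562 RPM, and AT1G62914 had 633, 230.3 and 240.3 RPM. Both were highest in replicate 1. AT1G63150 averaged 165.5 RPM, AT1G63130 164.9 RPM and AT1G62910 123 RPM. The median of the 16 genes was 14.0 RPM. miR161, which shares 1 bin between its overlapping forms miR161.1 and miR161.2, had 346, 809 and 1009 RPM.

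Other targets made less small RNA. ARF4 averaged 4.83 RPM, ARF2 2.46 RPM and ETT 0.234 RPM, far below the TAS3 locus that targets them. Among the auxin receptor genes cut by miR393, AFB3 averaged 12.3 RPM, AFB2 10.1 RPM and TIR1 1.03 RPM, and GRH1 had no listed bin. The 3 miR393 bins summed to 36.5, 113 and 118 RPM, most of it from the 3p arm of MIR393b.

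All listed bins were next sorted into 1 feature class each from the authors' annotation. Bins with no annotation held 32.1%, 29.5% and 30.2% of the listed RPM (30.6 ± 1.38%, SD, n = 3). Transposable element bins held 29.7%, 31.1% and 30.2% (30.3 ± 0.668%). These classes carried about the same share, but the transposable elements did so with 102071 bins (66.9% of those listed) and the bins with no annotation with 18814 (12.3%). Gene bodies held 10.6 ± 0.165%, promoters 9.08 ± 0.323%, the chloroplast 6.23 ± 0.256%, mature miRNAs 5.85 ± 0.610%, the genes of rRNA, tRNA, snRNA and snoRNA 4.82 ± 0.273%, and the mitochondrion 1.10 ± 0.0481%. Without replicate 1 the mature miRNA share was 6.20%. With the RPM of a bin split equally among all its classes that share was 2.46%, and without the ribosomal DNA units the share of structural RNA genes was 1.65%. A bin with a transposable element inside a promoter counts as transposable element here; with promoters counted first, transposable elements held 19.1% and promoters 20.6%.

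**Figure D4:**
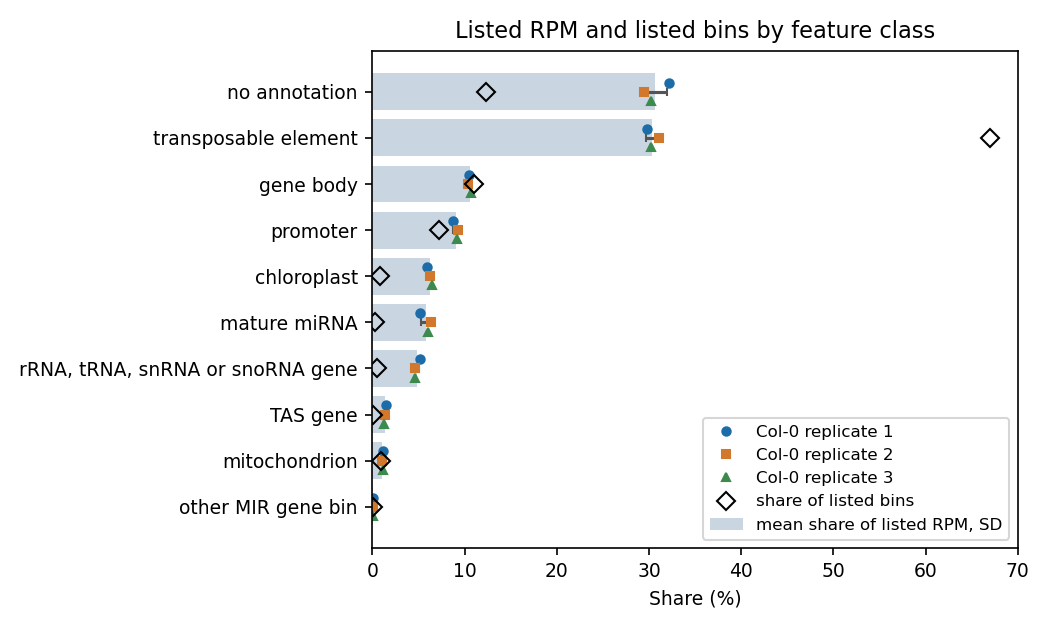
Share of the listed RPM by feature class, as the mean of 3 Col-0 libraries (bars, with SD) and for each library (symbols), with the share of listed bins as open diamonds. Transposable elements have 66.9% of the bins and 30.3% of the RPM, and mature miRNAs have 0.242% of the bins and 5.85% of the RPM.

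Most of the RPM lay in few bins. The 10 highest bins held 10.04 ± 0.648% of the listed RPM, the 100 highest 26.8 ± 2.89% and the 1000 highest 52.8 ± 3.2%, and 778 bins (0.510% of those listed) held 50%. The classes differed in this: 3 bins held 50% of the chloroplast RPM, 3 of the TAS RPM and 4 of the mature miRNA RPM, whereas transposable elements needed 3309 bins. Of the 100 highest bins, 45 had no annotation, 12 lay in genes of structural RNAs, 12 held a mature miRNA, 10 lay in gene bodies, 8 in transposable elements, 7 in the chloroplast and 4 in TAS genes. By chromosome, 25.3 ± 0.306% of the listed RPM lay on chromosome 3, 19.0 ± 0.274% on chromosome 1, 18.9 ± 0.298% on chromosome 2, 14.9 ± 0.255% on chromosome 4 and 14.5 ± 0.441% on chromosome 5.

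The transposable element layer was broad and low, with 1.82 ± 0.272 RPM per listed bin and a median bin at 0.486 RPM. It was densest around the gene-poor middle of the chromosomes, though not at the centre itself. In windows of 1 Mb, the mean was 2937 and 2754 RPM per Mb at 0.5 Mb to each side of the centre. At 1.5 Mb to each side it was 3277 and 4631 RPM per Mb. Within 2 Mb to each side of the centre of each chromosome, transposable element bins had 2953, 3752 and 3494 RPM per Mb of sequence, against 970.1, 1358 and 1232 RPM per Mb in the arms. This is 2.88 ± 0.146 times as much in the pericentromere as in the arms, and the ratio was between 2.06 on chromosome 2 and 3.55 on chromosome 1. The centre of chromosome 2 is the least clear, since its window holds 43 protein-coding genes, against 9 to 22 on the other chromosomes, and the next lowest ratio was 2.68 on chromosome 5. Bins with a mature miRNA had a ratio of 0.155 ± 0.0313, promoters 0.675 ± 0.0229 and gene bodies 1.17 ± 0.0297. A high ratio was not particular to transposable elements. Genes of rRNA, tRNA, snRNA and snoRNA had 2.99 ± 0.171. Bins with no annotation had 2.91 ± 0.0857, or 1.80 ± 0.140 outside the ribosomal DNA units. All nuclear bins outside these units had 1.68 ± 0.0105. The median transposable element bin was lower in the pericentromere (0.419 RPM) than in the arms (0.614 RPM), so the higher density came with more listed bins, 56729 in 20 Mb, against 45342 in 99.1 Mb of arms.

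**Figure D5:**
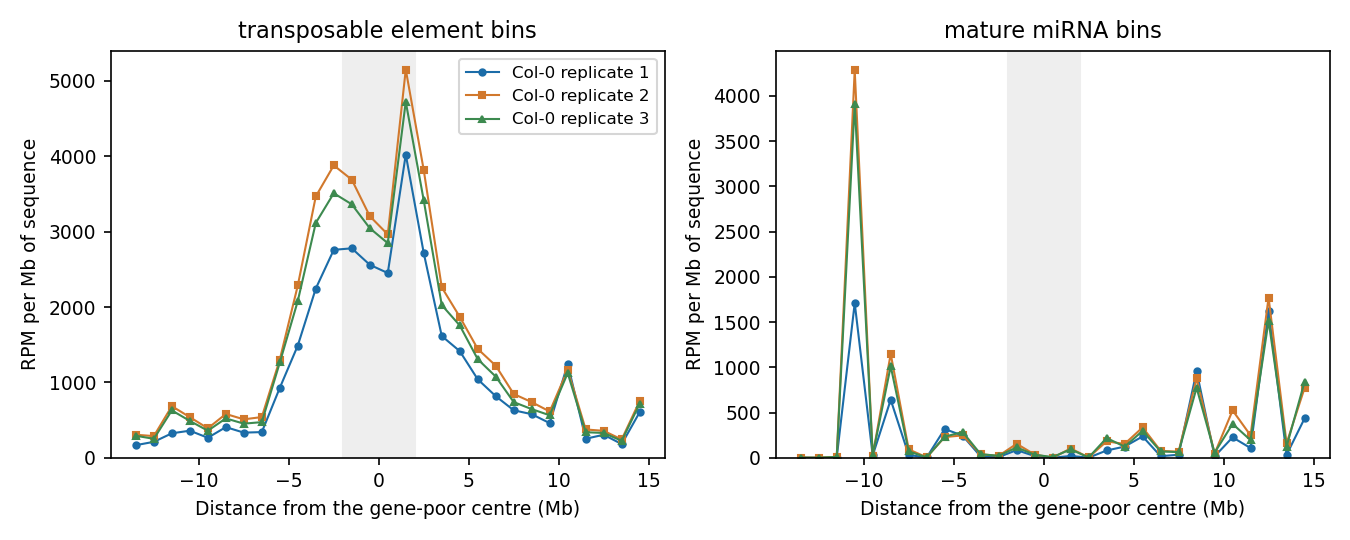
RPM per Mb of sequence in windows of 1 Mb against the distance from the gene-poor centre, summed over chromosomes 1 to 5, for transposable element bins (left panel) and mature miRNA bins (right panel). Lines are the Col-0 libraries and the grey band is the pericentromere. Transposable element bins reach a mean of 4631 RPM per Mb at 1.5 Mb from the centre and 217 at 13.5 Mb, and mature miRNA bins peak in the arms.

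Single transposable element loci were nonetheless high. The bin with the highest mean, at 13902701 to 13902800 of chromosome 4, and its neighbour from 13902601, whose mean ranked lower, lie in AT4TE65600 within AT4G27930 and together had 3699, 2845 and 2846 RPM. The adjoining 2 bins of AT4G27930, which carry no transposable element, added 1499, 2457 and 2299 RPM. Replicate 1 was highest in the first stretch and lowest in the next. AT3TE41655 on chromosome 3, in the promoter of AT3G27140, had 827.8, 1701 and 1510.0 RPM in 1 bin, and 3 bins of AT5TE27655 summed to 1445, 2397 and 2313 RPM. Of 3512 annotated transposable element genes with a listed bin, 2891 had a mean of at least 1 RPM, with a median of 4.74 RPM. AT1G77095 led them with 1432, 1519.6 and 1530.2 RPM, followed by AT3G43730 with 1239, 697 and 672 RPM and AT4G07031 with a mean of 515 ± 51.9 RPM.

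Counted over the bins in the annotated gene, loci known for RNA-directed DNA methylation were mostly low. Bins upstream of a gene are not part of these values, so siRNA at repeats outside the gene is not covered. FWA, whose promoter repeats are silenced in the wild type, had 52.5, 32.1 and 24.8 RPM. SDC, another gene silenced through its promoter repeats, averaged 4.66 ± 0.607 RPM and DML1 1.30 ± 0.0574 RPM. FIS2 averaged 0.0670 RPM, and MEA and PHE1 had no listed bin in the gene.

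Around protein-coding genes, the share of genes with a listed bin is given by position. Of 23067 genes, 9.24% had a listed bin 750 bp before the gene start, 4.46% at 150 bp before it, 2.95% at 50 bp before it and 2.41% at 50 bp inside. Inside the gene the share was 3.94% at 150 bp before the end, and past the end it was 4.08% at 50 bp and 6.72% at 650 bp. Of these positions, the lowest share was just inside the gene start and the highest was upstream. The share at 50 bp before the start was below that at 150 bp before the end. Deeper in the gene the share was lower than just inside the start. It was 2.10% of 14444 genes at 1950 bp inside and 1.84% of 15377 genes at 1850 bp before the end. These shares were not tested.

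Some protein-coding genes and pseudogenes made as much small RNA as a conserved miRNA. AT3G06435 had 1372, 3072.2 and 2958 RPM over 23 bins and AT4G08545, an LRR receptor-like gene, had 1948, 2609 and 2614 RPM over 10 bins. Replicate 1 was lowest at both. AT2G18530, a protein kinase gene, had 1693, 1631 and 1709.9 RPM and AT1G49260, a gene for a mechanosensitive channel-like protein, had 1356, 1413 and 1489.6 RPM, with little spread between libraries. The pseudogene AT3G43832, related to DUF239 peptidase genes, had 3348, 3597 and 3756 RPM in 4 neighbouring bins on chromosome 3 (15682201 to 15682600). Its level was close to that of the MIR159a bin. The bin shared by RABA6a, AT1G73650 and the pseudogene AT1G57900 had 615, 1536 and 1830.2 RPM, which cannot be assigned to any of them. AT4G14810, with 1039, 1362 and 1191 RPM, overlaps MIR780, and the table has no strand to tell them apart.

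Among promoter bins that carry no other feature, the 5 highest had means of 521 to 641 RPM. The highest, upstream of AT4G39200, which encodes a ribosomal protein S25, had 482, 671 and 771 RPM. The 3 joined bins upstream of AT5G49930 summed to 1041, 1017 and 948 RPM. Bins labelled as promoter on chromosome 1 (from 11140001) and chromosome 2 (from 1927201) lie in lncRNA genes of the reference, AT1G06417 and AT2G04885. A bin upstream of AT2G01021 lies in the ribosomal DNA of chromosome 2, with 415, 569 and 633 RPM.

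Ribosomal RNA was a large source of small RNA. The reference carries a ribosomal DNA unit on chromosome 2 (3706 to 9399) and another on chromosome 3 (14197677 to 14204208), and their 124 listed bins together had 52983, 57397 and 56472 RPM, 9.17 ± 0.866% of the listed RPM. The bin with the highest mean of the whole table is in the second unit, at 14202001 to 14202100 of chromosome 3, with 8391, 11373 and 11208 RPM, although the MIR158a bin was higher in replicates 2 and 3. The authors' annotation has no feature for it, and the reference places AT3G06365, a misc_RNA gene, there. The 70 bins of both units that have no annotation made up 17.9 ± 1.37% of that class, and without the units the class held 27.6% of the remaining RPM. The 18S rRNA genes AT3G41768 and AT2G01010 had 9017 ± 471 and 5444 ± 228 RPM (SD, n = 3). These copies are nearly identical, so the split between them is uncertain.

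Transfer RNA fragments were led by glycine tRNA genes. AT1G12590 had 2132, 762 and 752 RPM, AT4G18815 532, 1080.3 and 882 RPM, and AT2G27850 537, 1072 and 824 RPM. Replicate 1 was the highest at the first of these genes and the lowest at the others. Of 431 tRNA genes with a listed bin, 244 had a mean of at least 1 RPM. snRNA and snoRNA genes were lower, with maxima of 69.6 ± 5.69 RPM at U2.4 and 129 ± 52.9 RPM at AT1G04527.

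In the chloroplast, the signal was concentrated in the inverted repeat. Its copies (84171 to 110434 and 128215 to 154478) had 14468, 17337 and 17958 RPM and 14476, 17246 and 17996 RPM, so mirrored bins were nearly equal, and the rest of the chloroplast had 2185, 7733 and 5236 RPM. The mirrored bins with the highest level, at 104601 to 104700 and 134001 to 134100, had 8274, 8218 and 8287 RPM and 8293, 8210.1 and 8263 RPM. The libraries differed little here, with an SD of 36.4 RPM around a mean of 8259.5 RPM in the first of these bins. The bins share the 48 bases in capitals, which lie before the start of the 23S rRNA gene in the repeat.
chrC:104601-104700: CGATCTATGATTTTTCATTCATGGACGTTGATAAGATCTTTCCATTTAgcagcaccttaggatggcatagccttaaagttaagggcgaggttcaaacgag
A second mirrored pair, at 97101 to 97200 and 141401 to 141500, shares 52 bases. The authors label both bins as promoter, of ATCG00890 and ATCG01250, and the reference has ndhB there, a subunit gene of the chloroplast NADH dehydrogenase-like complex.
chrC:97101-97200: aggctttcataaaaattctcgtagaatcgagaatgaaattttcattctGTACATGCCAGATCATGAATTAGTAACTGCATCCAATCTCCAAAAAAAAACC
It had 3907, 3713 and 5034 RPM in the first copy and 3913, 3655 and 5088 RPM in the other. By contrast, the bin of the first gene of the chloroplast map, ATCG00010, a tRNA gene, varied widely, with 135, 2917 and 809.7 RPM.

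In the mitochondrion, rRNA genes led, with 2534, 2408 and 2792 RPM at ATMG00020 and 996, 1092 and 1191 RPM at ATMG01390. The single bin with the highest mean, at 359701 to 359800, has no annotation and had 170.8, 1124 and 586 RPM. In replicate 1 it was below other bins, such as that at 9401 to 9500 in ATMG00020 with 570.4 RPM. Of 1356 mitochondrial bins, 224 (16.5%) had a mean of at least 1 RPM, against 40.7% of the chloroplast bins.

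Outside the ribosomal DNA, bins with no annotation still held some of the highest levels. Their 2 highest bins are shown on the plus strand, since no feature name stands for them in the table.
chr3:20031001-20031100: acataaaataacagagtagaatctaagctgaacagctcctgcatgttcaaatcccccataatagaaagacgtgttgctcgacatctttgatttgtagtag
chr4:4105001-4105100: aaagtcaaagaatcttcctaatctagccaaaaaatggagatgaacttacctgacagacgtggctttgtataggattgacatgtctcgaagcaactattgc
The bin on chromosome 3, in the lncRNA gene AT3G08370 of the reference, had 6839.8, 3375 and 3759 RPM. The bin on chromosome 4, with no gene in the reference, had 4964, 3329 and 3497 RPM. Both were highest in replicate 1, the library in which the median mature miRNA bin was lower. The 4 joined bins in the lncRNA gene AT4G05995 (chromosome 4, 7592401 to 7592800) summed to 3276, 3286 and 3176 RPM, a spread of 60.9 RPM (SD) around 3246 RPM. A bin at 4162101 to 4162200 of chromosome 5 had 1352, 1379 and 1479 RPM.

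Hairpin-forming repeats were looked for as 15-base words that recur in reverse complement within 1000 bp around a bin. At least 30 such words were found around 18 of 248 mature miRNA bins with a mean of at least 1 RPM (7.26%) and around 940 of all 45609 nuclear bins at that level (2.06%). Among bins with no annotation the share was 1.66% of 7710. Outside the ribosomal DNA it was 1.69% of 5912 bins from 1 to under 10 RPM. It was 1.34% of 1495 bins from 10 to under 100 RPM and 3.35% (8 of 239 bins) at 100 RPM or more. The bin on chromosome 4 shown above had 28 of these words, just below the limit of 30, and that on chromosome 3 had 0. These shares describe the sequence around the bins and were not tested.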

How the data were processed

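The deposited values are RPM, which the authors made by scaling the reads of each bin of 100 bp to the reads of its library, and the features that overlap a bin are named beside them, per the file headers. The sources used here do not name an aligner, a build or a rule for reads with several matches. A bin is listed with at least 12 reads over 12 libraries. Per the labels, total RNA was extracted with TRIzol and the NEBNext kit for small RNA gave the libraries. All values of replicates 1 and 2 were whole multiples of 1 read (100.0% of values, tolerance 1e-06); for replicate 3 the step is near a rounding step and whole reads were not claimed. Reads were not collapsed to molecules as far as the labels tell, so depth covers counting error only.

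Of the listed gene identifiers, 9120 of 9247 were found in TAIR10.1 (RefSeq) and 99.48% of listings overlapped that gene; all 422 mature miRNA listings did, so its names and sequences were used. Mitochondrial genes keep the authors' bins. Each bin went to 1 class, in the order chloroplast, mitochondrion, mature miRNA, TAS gene, structural RNA gene, other MIR gene, transposable element, gene body, promoter, none. The centre of a chromosome is the middle of the 1 Mb window with the fewest protein-coding genes.

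Arm ratios were tested with limma 3.58.1 (R 4.3.3), intercept only, two-sided, 0.5 RPM added to each arm, on precursors with a mean of at least 1 RPM, with Benjamini-Hochberg adjustment; p-values measure the spread between 3 libraries. On simulated data for the 44 precursors, 10 of 11 with a 4-fold difference were called and 0 of 33 without. The simulated spread of the arms was the same for every precursor and held no deviating library. The SE of a real ratio reached 1.05 at MIR171a, so the simulation does not cover precursors with such a spread. All other results are descriptions. Named were the highest bins, loci and genes of each class and the members of lists at 1 RPM or more. The libraries, lists and tests were chosen with earlier results of these data known. The rule that a read counts at its lowest coordinate, seen at miRNAs that cross a bin border, and the alternatives without the ribosomal DNA units, with the bins of mature miRNAs and with edgeR 4.0.16 on the reads of replicates 1 and 2 were chosen after seeing the data.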

Additional observations from a re-analysis of the deposited data

How the results depend on the processing

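Under other settings, 210 values kept their direction and call or stayed within the spread of the libraries, 36 moved beyond it, 3 changed sign and 1 came past the threshold. With the RPM of a bin split among all its classes, the shares were 2.46% for mature miRNAs, 1.32% for TAS genes, 3.16% for structural RNA genes, 2.42% for other bins of MIR genes, 24.7% for transposable elements and 17.3% for promoters. With promoters before gene bodies and transposable elements they were 20.6%, 10.3% and 19.1%. Bins of at least 1 RPM gave 6.63% for the chloroplast, 1.49% for TAS genes, 5.14% for structural RNA genes, 27.4% for transposable elements and 32.0% for no annotation. Without the ribosomal DNA units the chloroplast held 6.86%, the mitochondrion 1.21%, TAS genes 1.54%, structural RNA genes 1.65%, transposable elements 33.4%, gene bodies 11.4%, promoters 9.81% and no annotation 27.6%. Of nuclear RPM alone, chromosomes 1 to 5 held 20.5%, 20.4%, 27.3%, 16.1% and 15.7%. Of the whole deposited library, the 10, 100 and 1000 highest bins held 6.11%, 16.2% and 32.1%. The pericentromere ratio was 1.99 at 1 Mb to each side and 3.59 at 3 Mb. It was 2.30 over all nuclear bins outside small RNA and structural RNA genes, a set that includes the transposable element bins. These settings move bins between classes or change the denominator or the width, and what lies behind each difference was not tested.

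Leaving out 1 replicate at a time gave 18 (without replicate 2) to 37 (without replicate 1) called arm ratios, against 29, and 18 of 26 tested at a minimum of 10 RPM. The reads of replicates 1 and 2 in edgeR called 20 of 44, 18 of them among the 29. The ratio of MIR396a was -0.23 without replicate 2, -0.18 without replicate 3, 1.25 without replicate 1 and -0.18 with edgeR, so its direction rests on the libraries used; that of MIR173 ran from -4.93 to -3.00. No called ratio changed sign under the settings tried. MIR loci at 1 RPM or more numbered 204 to 214 with a replicate left out. No paired analysis was possible because a single genotype was described; arm ratios are taken within a library. The listed bins hold 52.2% to 67.5% of the reads, and where the remaining reads belong was not tested. Separately, bins below 12 reads over all libraries are not listed, so loci at that level are not seen.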
